A study of Sus scrofa with 6 samples.

Results

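Radial glia are the stem cells of the developing cerebral cortex, and the 6 genes described here are HOPX, FAM107A and TNC, known as markers of outer radial glia, and PROM1, SFRP1 and VIM, which are found in radial glia more generally. They were picked by name from the annotation of a pig microarray, as every probe set whose only gene symbol is 1 of the 6, and this gave 7 probe sets (a pair for SFRP1 and 1 for each other gene) of the 10069 that carry exactly 1 symbol. The array names 6765 genes in this way. The genes were put together with their differences between the days already known from these arrays, and PROM1 is also among the transcripts that the study selected on the same arrays. Their differences between the days are therefore a description, and the calls they received are only counted, with nothing read from them.

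The study compared the cortex of the pig before and after its folds appear. Cortical RNA from 3 pig embryos at E60 (embryonic day 60, a smooth brain) and from 3 at E80 (embryonic day 80, with the primary folds formed) was measured on Affymetrix Pig Genome Arrays, 3 arrays per day, with no treatment or genetic change in either group. The labels give neither breed nor sex. They mention litter mates without saying which litter each array came from, so that litter and day cannot be told apart. No sorting of cells is described, and in bulk tissue fewer cells of a type and less RNA per cell cannot be told apart.

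Radial glia span the wall of the cortex with a long fibre that guides migrating neurons, and they divide to give neurons, intermediate progenitors and, later, astrocytes. Ventricular radial glia keep an apical foot at the ventricle, whereas outer radial glia lie in the outer subventricular zone, have lost this foot, and are numerous in species with a folded cortex. Several genes used as markers of outer radial glia, HOPX, FAM107A and TNC among them, are also expressed in astrocytes, and VIM is expressed in fibroblasts and blood vessels as well.

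The values are MAS5 signals, a brightness per probe set that has no absolute unit, so that levels are compared between arrays and never between genes. The median signal over the tested probe sets was 60.9 to 64.8 on the E60 arrays and 55.6 to 59.5 on the E80 arrays. E80 array 3 stood apart from the other arrays. Transthyretin (TTR), which the choroid plexus secretes into the cerebrospinal fluid, gave a signal of 4475 on it, against 15.1 and 6.25 on E80 arrays 1 and 2 and 1.47 to 3.70 at E60. The array's control probe set for 28S rRNA read 165, where the remaining arrays ranged from 525 to 999.9. The differences of the 6 genes, and of the called genes that lose their call, are also given without this array.

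The 3 outer radial glia genes all had a higher signal on each E80 array than on any E60 array, with means 1.79 to 2.01 times those of E60. HOPX, an atypical homeodomain protein that binds no DNA itself, had signals of 153, 150.2 and 147 on E60 arrays 1, 2 and 3 and of 238, 261 and 311 on E80 arrays 1, 2 and 3. The E60 arrays lay within 1.04-fold of each other, and the lowest E80 array was 1.55 times the highest E60 array. This is a log2 difference of 0.84 (standard error 0.12), or 1.79-fold, and it was 0.73 without E80 array 3.

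FAM107A, a protein that binds actin, had signals of 77.1, 74.3 and 72.2 at E60 and of 146, 117 and 193 at E80, in the order of the arrays. As for HOPX, the E60 arrays were close together, within 1.07-fold, while the highest E80 array was 1.65 times the lowest. The log2 difference was 1.00 (standard error 0.19), or 1.99-fold, and it was 0.81 without E80 array 3, the array with the highest signal.

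TNC is tenascin C, an extracellular matrix glycoprotein of the germinal zones, and not troponin C, which is also abbreviated in this way. Its signals were 130, 85.8 and 127 at E60 and 263, 239 and 185 at E80. Here the lowest array of E60 was array 2, and the lowest of E80 was array 3, on which HOPX and FAM107A were highest. The log2 difference was 1.01 (standard error 0.20), or 2.01-fold, and it was 1.16 without E80 array 3.

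The general radial glia genes did not share a direction. PROM1 (prominin 1), a membrane protein of the apical surface and its protrusions, had signals of 37.7, 44.3 and 47.8 at E60 and of 110.2, 164 and 75.5 at E80. All 3 arrays of E80 lay above those of E60, with the highest E80 array 2.17 times the lowest. The log2 difference of 1.36 (standard error 0.28), or 2.57-fold, was the largest of the 6 genes. Its signals at E60 lay below the median signal of their arrays. It was 1.64 without E80 array 3, and 0.94 with 32 added to each signal, which damps the changes of dim probe sets.

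SFRP1, a secreted protein that binds Wnt ligands, was lower at E80 on both of its probe sets. On the brighter one the signals were 847, 892 and 1058 at E60 and 367, 452 and 685 at E80, a log2 difference of -0.94 (standard error 0.21), or 1.91-fold lower. On the other one they were 787, 929 and 674 at E60 and 369, 477 and 430 at E80, a log2 difference of -0.90 (standard error 0.14), or 1.87-fold lower. Without E80 array 3 the differences were -1.19 and -0.91. The probe sets gave nearly the same mean difference but ordered the arrays of a day differently. E60 array 3 was the highest of its day on the brighter probe set and the lowest on the other, and E80 array 3 was the highest of its day only on the brighter one.

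VIM (vimentin), the intermediate filament protein that fills the fibres of radial glia, had signals of 2075, 2323 and 2050 at E60 and of 1353, 1859 and 1794 at E80. All E80 arrays lay below those of E60, but the gap was narrow, with the lowest E60 array 1.10 times the highest E80 array. The log2 difference was -0.38 (standard error 0.13), or 1.30-fold lower. It was -0.23 without E80 array 1, the array with the lowest signal, and -0.44 without E80 array 3.

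**Figure D1:**
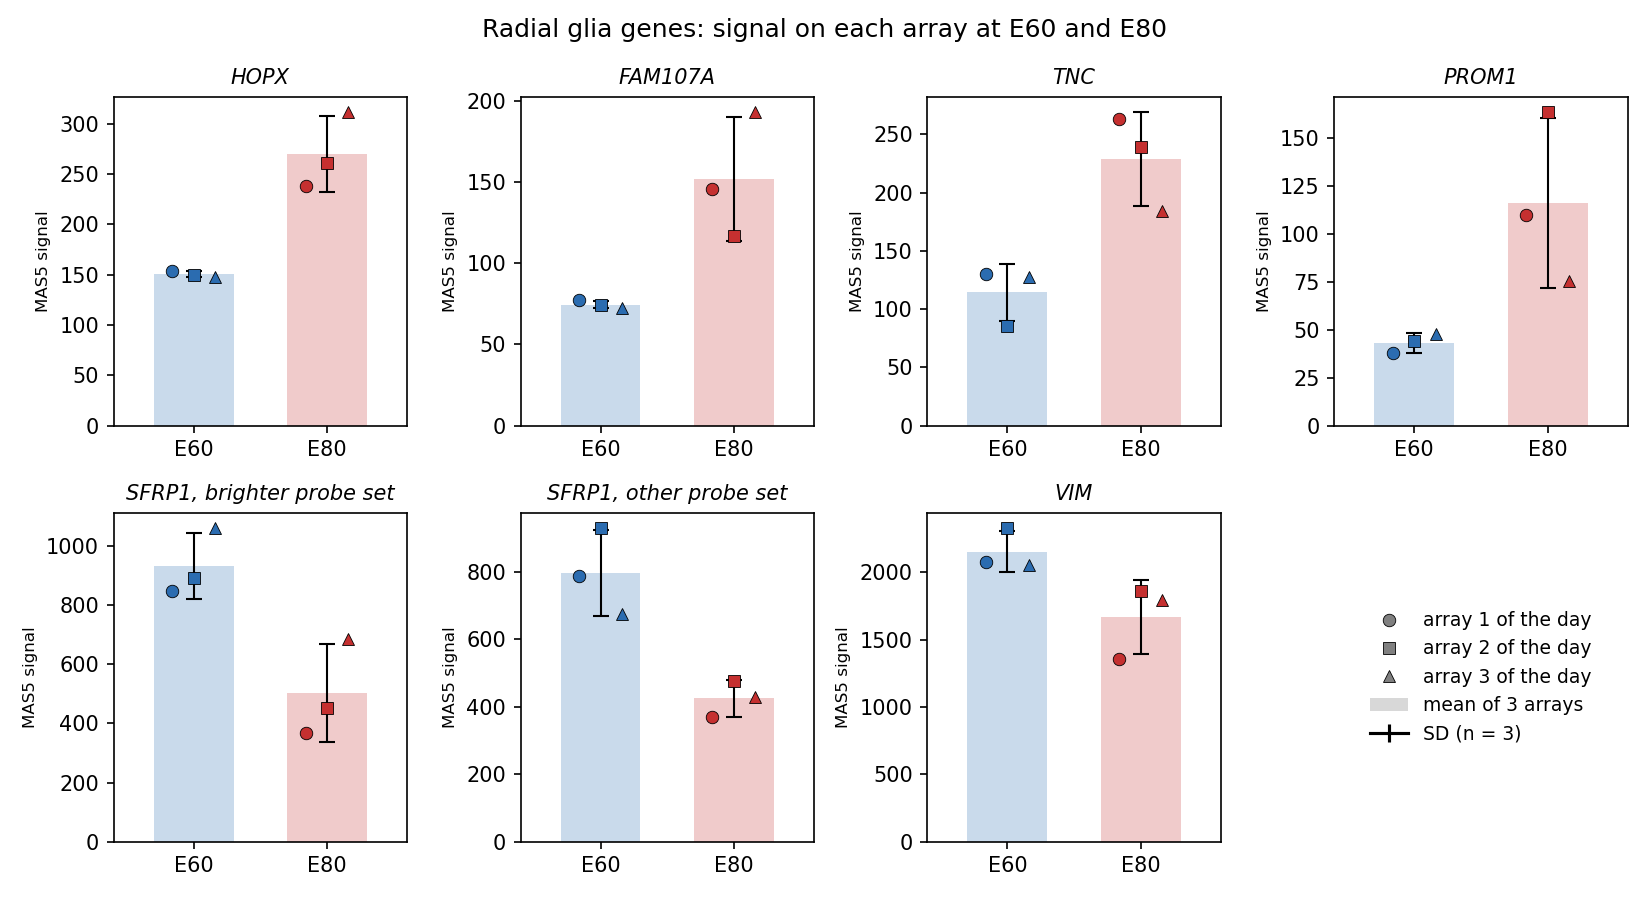
MAS5 signal (vertical axis, linear and starting at 0) of the 7 probe sets of the 6 radial glia genes at E60 (blue) and E80 (red). Symbols are single arrays, bars are means and error bars are SD (n = 3); HOPX, FAM107A, TNC and PROM1 are higher and both probe sets of SFRP1 and VIM lower on every E80 array, as for HOPX at 238 to 311 against 147 to 153.

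In all, the days did not overlap on any of the 7 probe sets, with E80 above E60 on 4 and below it on 3. Over all 23999 probe sets tested, 9.25% were higher and 14.4% lower with no overlap. In limma, with p-values adjusted over all probe sets, 4 of the 7 were called at an adjusted p under 0.05, which are HOPX, FAM107A, TNC and the dimmer probe set of SFRP1. Of all probe sets 1.95% were called, 0.933% as higher and 1.01% as lower. A fold of at least 3 between the mean log2 signals, with no overlap, was reached by none of the 7 and by 1.21% of all probe sets. This fold is computed here from the deposited signals and need not equal the one by which the study selected PROM1. The genes were chosen with this contrast known, so none of these counts is evidence about them. No member probe set was called in limma without E60 array 1, without E60 array 2 or without E80 array 1. There were 2 without E80 array 3, which are PROM1 and the brighter probe set of SFRP1.

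The level that the arrays are scaled to shifts these differences a little and turns none of them. The median log2 difference over all probe sets was -0.05 as deposited and 0.06 once all arrays had been brought to a common median. With equal medians the log2 differences were 0.95 for HOPX, 1.11 for FAM107A, 1.13 for TNC and 1.48 for PROM1, -0.82 and -0.79 for SFRP1 and -0.26 for VIM. The calls over all probe sets moved from 224 risen and 243 fallen to 311 risen and 108 fallen.

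A ratio of 2 genes on the same array does not depend on the scaling of that array, and it was used to set the outer radial glia genes against the general ones. Each of the 3 outer genes was paired with each of the 3 general genes, which gives 9 log2 ratios, each taken relative to its mean over the E60 arrays. The 6 ratios over VIM or SFRP1 were higher on all E80 arrays than on any E60 array. That of HOPX over VIM was 1.33, 1.00 and 1.31 on E80 arrays 1, 2 and 3, against -0.12 to 0.08 at E60, and that of HOPX over the brighter probe set of SFRP1 was 2.00, 1.83 and 1.49, against -0.22 to 0.16.

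The 3 ratios over PROM1 overlapped between the days and were lower at E80 in the mean, by 0.53 for HOPX, 0.37 for FAM107A and 0.35 for TNC on the log2 scale. The ratio of FAM107A over PROM1 ran from -1.28 on E80 array 2 to 0.56 on E80 array 3, a wider range than that of -0.19 to 0.24 at E60. Averaged over the 3 genes of each group, the outer genes were higher at E80 by 0.95 on the log2 scale and the general genes by 0.02, a difference of 0.93, or 0.89 without E80 array 3. The near-zero mean of the general genes combines 1.36 for PROM1 with a mean of -0.66 for VIM and SFRP1. On single arrays the outer minus general score was -0.25, -0.63 and -0.52 at E60 and 0.70, 0.15 and 0.54 at E80, and against VIM and SFRP1 alone it was -0.62, -0.96 and -0.83 at E60 and 1.15, 0.67 and 0.59 at E80. The choice of the genes fixes the direction of most of these values, so they carry no test.

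**Figure D2:**
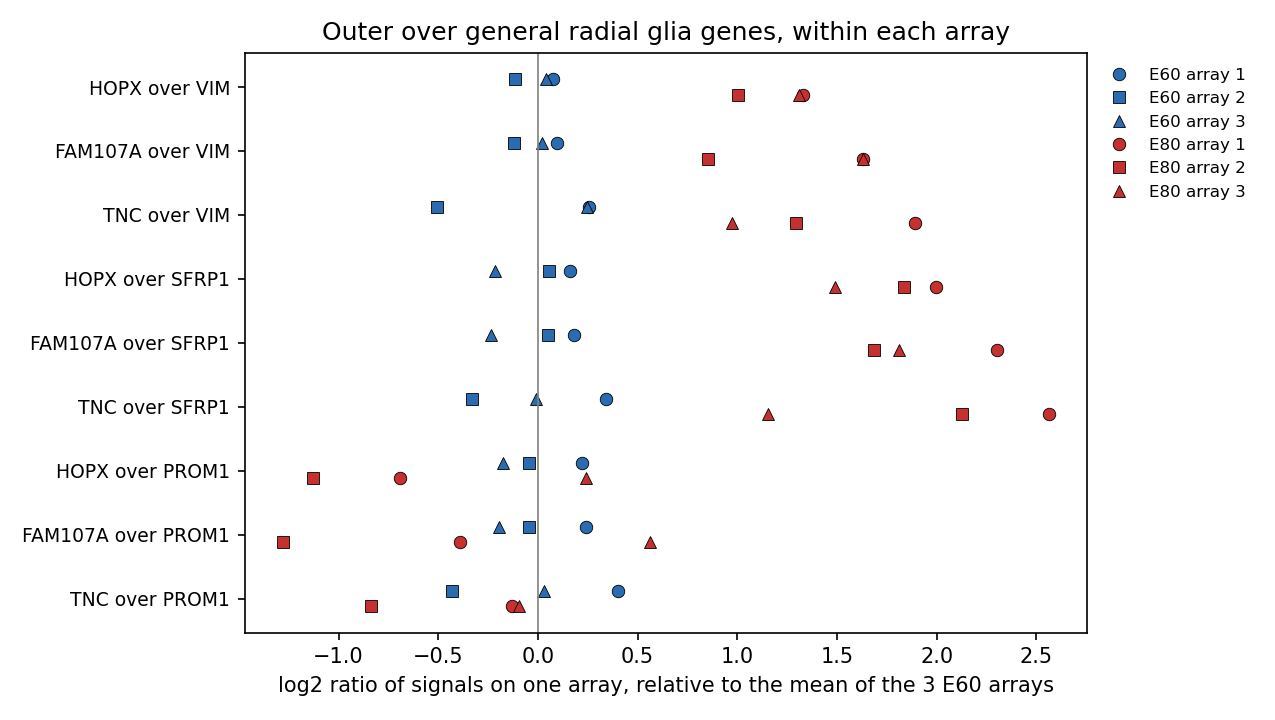
Log2 ratio of an outer to a general radial glia gene on each array (horizontal axis), relative to the mean of the E60 arrays, for the 9 pairs (SFRP1 by its brighter probe set). Blue symbols are E60 arrays and red symbols E80 arrays; the days are apart for the 6 ratios over VIM and SFRP1, as for HOPX over VIM at 1.00 to 1.33 against -0.12 to 0.08, and overlap for the 3 ratios over PROM1.

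The spread within a day is given as a description, because a difference between the days that is known beforehand also depends on it. Dimmer probe sets spread more, with a median SD below the median signal of 0.397 at E60 and 0.435 at E80. At E60 the SD of the log2 signal was 0.03 for HOPX and 0.05 for FAM107A, below the median of 0.15 over the probe sets brighter than the median, while TNC had 0.34. At E80 it was 0.20 for HOPX, 0.36 for FAM107A, 0.27 for TNC and 0.56 for PROM1, above the median of 0.16 for bright probe sets. The SD was larger at E80 than at E60 for 5 of the 7 probe sets, the exceptions being TNC and the dimmer probe set of SFRP1, and for 51.3% of all bright probe sets. None of the 7 had an SD at E80 below that median. With E80 arrays 1 and 2 alone the SD was larger than at E60 for 6 of the 7, all but TNC, and for 42.5% of bright probe sets. With 3 arrays per day these spreads are themselves imprecise.

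The other radial glia genes on the array were not called on their brightest probe sets. Of 18 further genes of radial glia in general, 7 have a named probe set, and of 16 further genes of outer radial glia, 8 have one. None of these 15 passed the limma test on its brightest probe set, and the median log2 difference was -0.03 in the general list and 0.07 in the outer list, against -0.05 over all probe sets. The sign of the general list turned with the scaling, to 0.09 with equal array medians, while that of the outer list was 0.19. At an unadjusted p under 0.05 in limma there were 0 genes of the general and 2 of the outer list. Over all 23999 probe sets there were 4308, which is the background for this and the later counts at this threshold.

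FABP7, the brain lipid binding protein of radial glia, had signals of 2881, 2526 and 2863 at E60 and 2706, 2646 and 2752 at E80, and the days overlapped (log2 difference -0.03, standard error 0.08, adjusted p = 0.903 from limma). The Notch target HES1, which keeps radial glia undifferentiated, had 84.9, 99.7 and 87.5 at E60 and 64.8, 70.9 and 78.6 at E80 (log2 difference -0.34, adjusted p = 0.287 from limma). SOX9, a transcription factor of stem cells and astrocytes, had 48.4 to 58.6 at E60 and 26.0, 11.1 and 52.0 at E80 (-1.13, adjusted p = 0.280 from limma). The E80 arrays of SOX9 spread too widely for its mean difference to be read. In the outer list, the growth factor pleiotrophin (PTN) had a log2 difference of -0.01 (standard error 0.09), the signal transducer STAT3 one of 0.21 (standard error 0.12) and the acyl-CoA synthetase ACSBG1 one of 0.67 (standard error 0.18, adjusted p = 0.0965 from limma). ACSBG1 had 37.9 to 48.8 at E60 and 67.7 to 68.8 at E80, so that the days were apart, as for the ubiquitin ligase subunit FBXO32 in the opposite direction (117 to 182 at E60, 75.8 to 102 at E80, log2 difference -0.81, adjusted p = 0.0823 from limma). A dimmer probe set of FBXO32 fell (-0.93, adjusted p = 0.0438). Of the brightest genes of both lists, the inhibitor of differentiation ID4 had a log2 difference of -0.03, podoplanin (PDPN) one of 0.17 and the G protein subunit GNG5 one of -0.20, none of them called. Other defining genes of these lists, such as PAX6, SOX2, NES, PTPRZ1 and LIFR, were not analysed here, because their symbols stand alone on none of the probe sets.

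**Figure D3:**
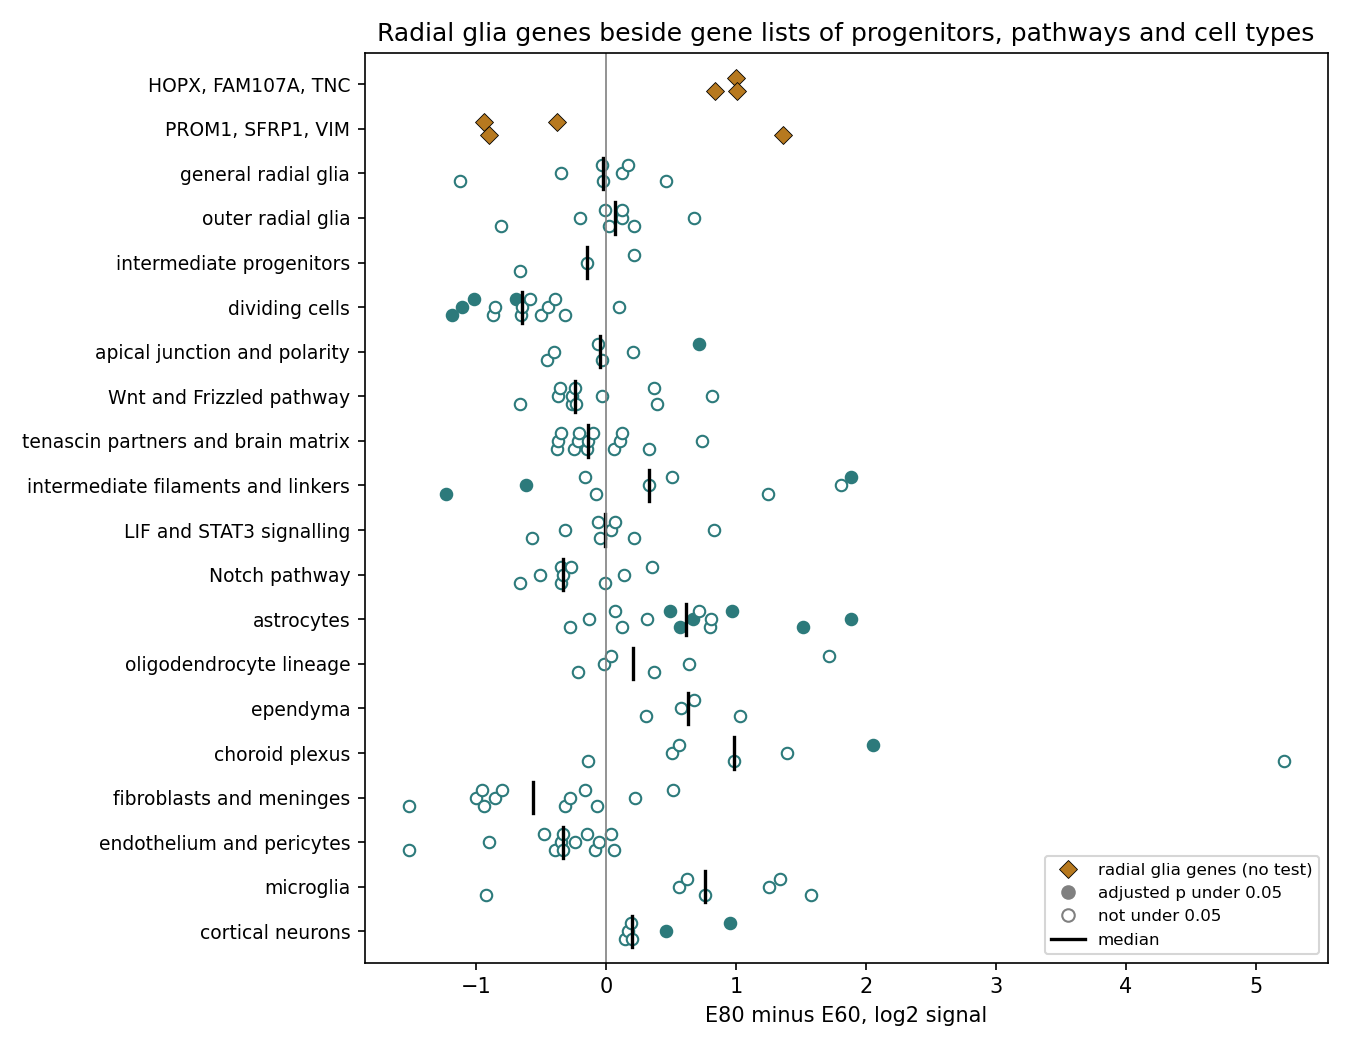
Difference of E80 minus E60 in log2 signal (horizontal axis) for the 6 radial glia genes (diamonds, 7 probe sets, top rows) and for every measured gene of 18 lists (circles, the brightest probe set per gene). Filled circles have an adjusted p under 0.05 in limma and black lines are list medians, which run from -0.65 for dividing cells to 0.99 for choroid plexus. On E80 arrays 1, 2 and 3 the choroid plexus median stood at 0.44, 0.39 and 2.26 relative to E60. The further outer radial glia genes have a median of 0.07, against 0.84 to 1.01 for HOPX, FAM107A and TNC.

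In the pathways and families of the 6 genes, brightest probe sets were called only among intermediate filaments and linkers and among apical junction genes. In the Wnt pathway, whose ligands SFRP1 binds, 11 of 36 genes were measured and none passed. The receptors Frizzled 6 (FZD6, log2 difference -0.66, adjusted p = 0.103 from limma) and Frizzled 2 (FZD2, -0.36, adjusted p = 0.179) and the co-receptor LRP6 (-0.24, adjusted p = 0.306) each had all E80 arrays below those of E60, and the secreted DKK3 all above (0.37, adjusted p = 0.137). Beta-catenin (CTNNB1), the effector of the pathway, had 1632 to 1697 at E60 and 1575 to 1678 at E80 (-0.03) on its brightest probe set, and its other probe sets ran from -0.41 to 0.61, none of them called. At an unadjusted p under 0.05 there were 3 of the 11 genes of this list, against 4308 of all 23999 probe sets.

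Among 24 receptors and matrix partners of tenascin C, 14 were measured and none passed, with 3 at an unadjusted p under 0.05. Integrin beta 1 (ITGB1), a chain of several matrix receptors, had 628 to 651 at E60 and 483 to 524 at E80 (log2 difference -0.35, adjusted p = 0.0737 from limma). The link protein HAPLN1 had 42.7 to 59.0 at E60 and 74.4 to 89.4 at E80 (0.74, adjusted p = 0.0870), and the proteoglycan versican (VCAN) 564 to 606 and 403 to 504 (-0.37, adjusted p = 0.116). Fibronectin (FN1), a matrix protein that tenascin C binds, had 769.7 to 1163 and 649 to 1019, with overlap.

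Among 16 intermediate filament proteins and their linkers, the family of vimentin, 9 were measured, of which 1 rose and 2 fell. Over all probe sets 0.933% rose and 1.01% fell. GFAP, the intermediate filament of astrocytes, rose from 205, 179 and 209.6 to 456, 678 and 1258 (log2 change 1.89, standard error 0.31, adjusted p = 0.0304 from limma). Without E80 array 3 the change of GFAP was 1.49 (adjusted p = 0.0321). A further probe set of GFAP rose as well (1.76, adjusted p = 0.0321), and its dim remaining ones did not pass. Lamin B1 (LMNB1), a filament of the nuclear envelope, fell from 366, 332 and 284 to 125, 167 and 127 (-1.23, standard error 0.15, adjusted p = 0.0159), and nesprin 2 (SYNE2), which ties the nucleus to the cytoskeleton, from 175 to 195 down to 110 to 127 (-0.62, adjusted p = 0.0449). Without E80 array 3 SYNE2 was not called (-0.66, adjusted p = 0.0791). GFAP was selected by the study on these arrays, so its rise is not independent evidence.

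Of 18 genes of apical junctions and polarity, the structures of the ventricular surface where prominin 1 sits, 6 were measured and 1 rose. The share of all probe sets that rose was 0.933%. The atypical protein kinase C zeta (PRKCZ) rose from 422, 511 and 457 to 802, 763 and 714 (log2 change 0.72, standard error 0.10, adjusted p = 0.0196 from limma), and on a second of its probe sets by 0.92 (adjusted p = 0.0159). The junction protein CTNNB1 is given above, and the polarity GTPase CDC42 had a log2 difference of 0.21 (adjusted p = 0.316). PROM2, the paralogue of PROM1, had 29.8 to 38.2 at E60 and 30.6 to 39.0 at E80 (-0.06, adjusted p = 0.922). In the Notch pathway 9 of 24 and in the LIF and STAT3 pathway 8 of 15 genes were measured, and none passed on its brightest probe set, with 2 and 1 at an unadjusted p under 0.05. With no overlap between the days, 6 of the 9 Notch genes were lower and 1 was higher, against 14.4% and 9.25% of all probe sets. The Notch ligand JAG1 had 260 to 339 at E60 and 148 to 222 at E80 (-0.67, adjusted p = 0.0953), and the nuclear effector RBPJ 467 to 653 and 378 to 413 (-0.51, adjusted p = 0.0901). Both further probe sets of RBPJ fell, by 0.94 (adjusted p = 0.0329) and by 0.71 (adjusted p = 0.0388) on the log2 scale. For the Notch modifier LFNG the log2 difference was 0.35 (adjusted p = 0.457), and the kinases JAK1 and TYK2 of the STAT3 pathway had -0.05 (adjusted p = 0.865) and -0.31 (adjusted p = 0.117).

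Some genes of dividing cells fell and some genes of astrocytes rose. Of 14 measured genes of dividing cells (22 in the list), 4 fell and none rose, 12 had no overlap between the days and were lower, and the median log2 difference was -0.65. Over all probe sets 1.01% fell and 14.4% were lower with no overlap. The ribonucleotide reductase subunit RRM2 fell from 146, 154 and 137 to 65.4, 67.6 and 84.1 (log2 change -1.02, adjusted p = 0.0218 from limma), the replication clamp PCNA from 368, 380 and 371 to 212, 258 and 225 (-0.69, adjusted p = 0.0235), cyclin B1 (CCNB1) by 1.19 on the log2 scale (adjusted p = 0.0388) and the topoisomerase TOP2A by 1.11 (adjusted p = 0.0474). Without E80 array 3 PCNA was not called (-0.67, adjusted p = 0.0617).

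Of 14 measured genes of astrocytes (17 in the list), 6 rose and none fell, and the median log2 difference was 0.62, against -0.05 over all probe sets, of which 0.933% rose. The metallothionein MT3 rose from 813, 904 and 1001 to 1616, 1723 and 1985 (log2 change 0.97, standard error 0.11, adjusted p = 0.0159 from limma). The lipid carrier APOE rose by 1.51 (adjusted p = 0.0348), the aldolase ALDOC by 0.67 (adjusted p = 0.0344), NDRG2 by 0.49 (adjusted p = 0.0361) and clusterin (CLU) by 0.57 (adjusted p = 0.0459), besides GFAP. Without E80 array 3 the change of APOE was 1.17 (adjusted p = 0.0297), and ALDOC (0.67, adjusted p = 0.0810), NDRG2 (0.50, adjusted p = 0.0812) and CLU (0.46, adjusted p = 0.0893) were not called. APOE and GFAP were selected by the study on these arrays. The glutamate transporter SLC1A3, known from both radial glia and astrocytes, had 39.4 to 78.9 at E60 and 54.7 to 71.6 at E80 (0.12, adjusted p = 0.859).

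These counts rest on all 6 arrays. Neither list held a call without E60 array 1, without E60 array 2 or without E80 array 1, where 1 probe set was called in all. Astrocyte genes with a call numbered 2 without E60 array 3, 3 without E80 array 2 and 3 without E80 array 3, and genes of dividing cells 1, 2 and 5. Under each of these 6 omissions and both scalings the median difference stayed above 0 in the astrocyte list (0.48 to 0.73) and below 0 in the list of dividing cells (-0.73 to -0.54). Of the intermediate progenitors, the daughters of radial glia, only 3 of 12 list genes were measured and none passed, with log2 differences of 0.21 for ELAVL4, -0.15 for NEUROD1 and -0.66 for BTG2. Of 6 measured genes of cortical neurons (17 in the list) the synaptic genes SNAP25 (0.46, adjusted p = 0.0342 from limma) and SYN1 (0.95, adjusted p = 0.0378) rose, and STMN2, the brightest, had 0.19 (adjusted p = 0.294). Over all probe sets 0.933% rose. Without E80 array 3 neither SNAP25 (0.48, adjusted p = 0.0774) nor SYN1 (0.84, adjusted p = 0.0882) was called.

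Markers of other cells moved with single arrays, and so did the radial glia genes, in an order that differed from gene to gene. Relative to E60, the median of 7 measured choroid plexus genes (of 12) was 0.44, 0.39 and 2.26 higher on the log2 scale on E80 arrays 1, 2 and 3, that of 4 ependymal genes (of 12) was 0.46, -0.06 and 1.65, and that of 7 microglial genes (of 12) 0.17, 0.20 and 1.58. The summed signal of the choroid plexus list was 118 to 199.6 at E60 and 236, 266 and 5585 at E80, that of the ependymal list 92.1 to 111 and 142, 121 and 299, and that of the microglial list 177 to 280 and 265, 270 and 754. In the choroid plexus list 1 gene was called, coagulation factor V (F5), which rose from 22.3, 21.5 and 23.6 to 118, 64.1 and 108 (log2 change 2.05, adjusted p = 0.0159 from limma), and in the ependymal and microglial lists none. Over all probe sets 0.933% rose. F5 was selected by the study on these arrays, and so were ENPP2 and AQP1 of this list, so their rise is not independent evidence. ENPP2 and AQP1 of the choroid plexus had 692 and 168 on E80 array 3, against at most 129.5 and 36.9 on any other array. The ependymal genes ENKUR and CFAP126 had 140.2 and 114 on E80 array 3, against at most 79.7 and 40.8 on any other array. The dim ependymal gene CCDC78 had 19.2 there and 20.2 on E80 array 1. The microglial genes C1QC, AIF1 and C1QA had 227, 176 and 140.5 on E80 array 3, against at most 94.1, 64.6 and 54.8 on any other array. The ependymal marker FOXJ1 was not analysed here. PROM1 is also known from ependyma and choroid plexus, and it had its lowest E80 signal on array 3. TNC was also lowest there. The part of ependyma and choroid plexus in the difference of PROM1 was not tested.

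HOPX and FAM107A were highest on E80 array 3, the array on which 7 of the 14 astrocyte genes, among them GFAP, APOE and CLU, had the highest of their 6 signals. So had 5 of 7 choroid plexus, 5 of 7 microglial, 4 of 6 oligodendrocyte, 3 of 4 ependymal and 3 of 6 neuronal genes. Among fibroblast genes it was 1 of 12, and among endothelial and pericyte genes 0 of 13. The share over all probe sets was not computed. The summed signal of the astrocyte list was 9383 to 9846 at E60 and 12859, 13034 and 16583 at E80, and that of the oligodendrocyte list (6 of 12 measured, none called) 781 to 970 and 1242, 972 and 1737. Within the latter, myelin basic protein (MBP) had 42.6 to 64.7 at E60 and 162, 68.3 and 466 at E80 on its brightest probe set, and the lineage factors OLIG1 and OLIG2 had log2 differences of 0.37 and 0.64. Dimmer probe sets of MBP, a gene that the study selected on these arrays, had log2 differences of 0.71, 0.21 and 0.17, none of them called. Dimmer probe sets of OLIG2 had -0.16 and -1.11, neither of them called. The part of these cells in the differences of HOPX and FAM107A was not tested.

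VIM was lowest on E80 array 1. The median of 12 measured genes of fibroblasts and meninges (16 in the list, none called, 10 lower in the mean and 3 of these with no overlap) stood at -0.96, 0.00 and -0.80 on E80 arrays 1, 2 and 3 relative to E60, with a summed signal of 2614 to 3210 at E60 and 1543, 2736 and 1740 at E80. Over all probe sets 14.4% were lower with no overlap, and the share with a lower mean was not computed. The matrix protein fibulin 1 (FBLN1) had 427 to 466 at E60 and 213, 365 and 199 at E80, and the receptor PDGFRB 304 to 371 and 247, 322 and 347. Collagen COL1A2 had 319 to 416 at E60 and 167, 290.0 and 146 at E80, and decorin (DCN) 272 to 580 and 111, 305 and 73.0, so that its days overlapped on E80 array 2. Decorin is also among the transcripts that the study selected on these arrays. In the list of endothelium and pericytes 13 of 15 genes were measured and none called, with a summed signal of 1972 to 2308 at E60 and 1743, 1962 and 1593 at E80. Of these 13 genes 11 had a lower mean at E80, with E80 wholly below E60 for 3, against 14.4% of all probe sets. The median log2 difference was -0.33, against -0.05 over all probe sets. The VEGF receptor KDR had 35.0 to 46.8 at E60 and 21.4, 21.3 and 6.52 at E80 (-1.52, adjusted p = 0.141 from limma), and ESAM (-0.33) and KCNJ8 (-0.35) were the others with the days apart on the brightest probe set. Dimmer probe sets had -0.47 for KDR, -0.16 and 0.90 for ESAM and -0.57 and -0.08 for KCNJ8, none of them called. Of the brightest, the tight junction protein CLDN5 had a log2 difference of -0.24, the pericyte gene RGS5 of 0.04 and the actin ACTA2 of -0.90, each with overlap. On E80 array 2, where the fibroblast list was level with E60, VIM was 0.21 lower than the mean of E60 on the log2 scale. The part of these cells in the difference of VIM was not tested.

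**Figure D4:**
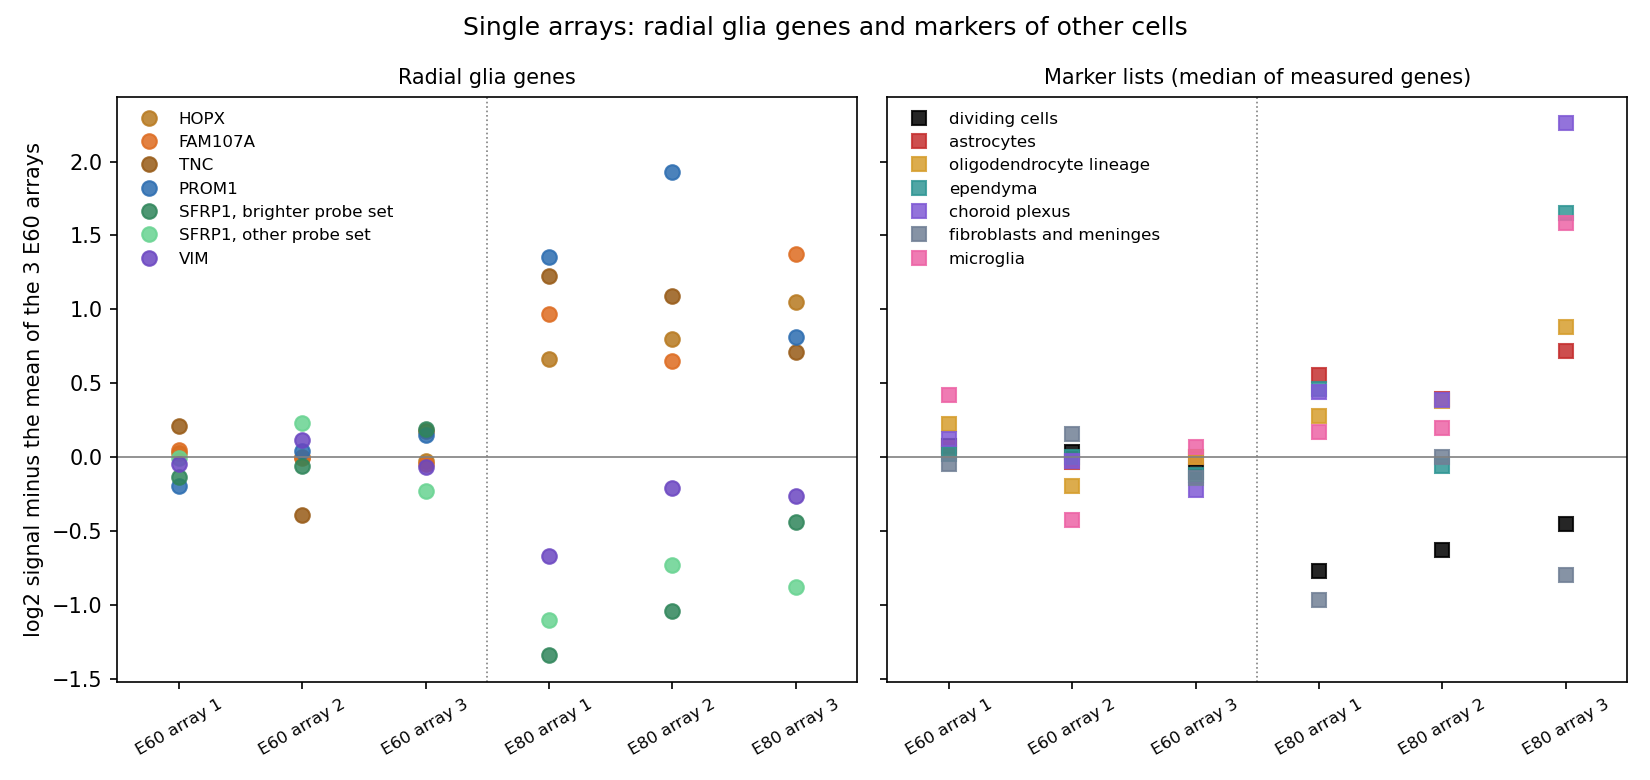
Log2 signal of each array minus the mean of the E60 arrays (vertical axis) for the 7 probe sets of the 6 radial glia genes (left) and for the median of the measured genes of 7 marker lists (right). On E80 array 3 the choroid plexus list stands at 2.26 and the ependymal list at 1.65, while PROM1 is at 0.81 there and at 1.93 on E80 array 2.

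The genes with the most similar pattern over the 6 arrays were looked up among 4649 genes with a mean signal above the median, by the root mean square difference of their log2 signals after each gene was centred on its own mean. This is a description of single arrays, and the likeness includes the difference between the days. Nearest to HOPX were the respiratory chain subunit COX7C (root mean square difference 0.10), the membrane skeleton protein ADD3 (0.11) and the adhesion molecule VCAM1 (0.11). VCAM1, with 223, 189 and 186 at E60 and 352, 319 and 445 at E80, was also among the nearest to FAM107A (0.11), with ISG12(A) (0.09) and the sphingosine phosphate receptor S1PR1 (0.11). S1PR1 had 152, 142 and 173 at E60 and 277, 243 and 381 at E80. HOPX and FAM107A thus shared 1 of their 3 nearest genes.

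TNC had more distant neighbours, the potassium channel subunit KCNF1 (0.15), the glycogenin GYG1 (0.18) and the calcium sensor VSNL1 (0.19), and so had PROM1, with the transcription factor KLF9 (0.18), the locus LOC100621559 (0.18) and RGS4 (0.20), a regulator of G protein signalling. Of the E80 arrays, array 3 was the lowest for all of these, as for PROM1 and TNC, except KCNF1, which had 139, 134 and 136. Nearest to SFRP1 were GADD45G (0.17), RACGAP1 (0.17) and CKS2 (0.20). RACGAP1, which acts in the division of the cell body, had 202, 234 and 239 at E60 and 97.4, 136 and 142 at E80, and CKS2, a subunit of cyclin dependent kinases, had 195, 155 and 191 and 70.6, 69.5 and 107. Nearest to VIM were C4H8orf76 (0.03), MED18 (0.06), a subunit of the Mediator complex, and METTL17 (0.06), with log2 differences of -0.38, -0.33 and -0.36, none of them called.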

How the data were processed

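Each deposited value is a MAS5 signal intensity, linear and not log transformed, and the authors had scaled the arrays to a common level. The mean of the middle 96% of signals is 150.02 on each array. The study lists how many probe sets were detected on each array, but calls per probe set were not used here. The MAS5 version is not stated in the sources read. Each of the 6 columns belongs to 1 array, and the day was taken from its label, as 60 or 80.

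Of 24123 probe sets, 124 controls were left out. Symbols come from the annotation of the platform (10069 probe sets with 1 symbol, 198 with several, 13732 with none), and all 6 genes matched RefSeq by gene ID. No genome build is named, so no coordinates are given, and no sequences were used.

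Signals were log2 transformed without a pseudocount, and the days were compared in limma 3.58.1 under R 4.3.3 (lmFit, eBayes with an intensity trend), with Benjamini-Hochberg adjustment over 23999 probe sets and a threshold of 0.05. The script was tested on simulated data. Lists use the brightest probe set per gene. Every probe set of the 6 genes was named, from each list up to 6 called genes by smallest p, filled up to 3 with the brightest, and the 3 nearest genes of each member. DCN, SOX9, HES1, SLC1A3, ACSBG1, FBXO32, FZD6, FZD2, HAPLN1, PROM2, KDR, ESAM, KCNJ8 and TTR lie outside this rule and were chosen after their values were seen. The genes and lists were chosen with earlier results of these data known. Alternatives were quantile normalization, equal array medians, a constant of 32 before the log, a filter to the brightest 66%, array weights, no trend, other fold definitions, other probe sets and leaving out each array. Signals have no counting depth, and 3 arrays per day limit the precision.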

Additional observations from a re-analysis of the deposited data

How the results depend on the processing

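The differences of the 7 radial glia probe sets kept their direction in every setting run, and apart from PROM1 with 32 added (0.94) they moved by less than the spread between replicates in the settings that kept all arrays. No paired analysis was possible because the days come from different embryos, and the labels give nothing that links an E60 array to an E80 array. Leaving out each array in turn gave log2 differences of 0.73 to 0.93 for HOPX, 0.81 to 1.17 for FAM107A, 0.82 to 1.16 for TNC, 1.08 to 1.64 for PROM1, -1.19 to -0.74 and -1.02 to -0.78 for SFRP1 and -0.46 to -0.23 for VIM, and 0.81 to 1.09 for the outer minus general difference. It gave 0 to 178 probe sets risen and 1 to 189 fallen, 0 to 3 radial glia probe sets called, 0 to 8 list genes risen and 0 to 8 fallen, and 227 to 274 higher and 206 to 325 lower by the 3-fold rule.

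All probe sets risen and fallen were 353 and 410 among the brightest 66%, 520 and 649 with array weights, and 0 and 0 without the intensity trend, where 3706 had an unadjusted p under 0.05 in limma. Fallen were 108 with equal array medians. The 3-fold rule gave 91 lower with equal medians, 6 higher and 2 lower with 32 added, and 19 and 13 among the brightest 66%, and a 2-fold rule gave 367 and 427. Radial glia probe sets called were 2 with 32 added and 0 without the trend. List genes, 10 risen and 6 fallen of 152 measured, had 3 fallen with quantile normalization and with equal medians, 14 fallen with array weights, and 0 and 0 without the trend. The cause of these moves was not tested. Among the brightest 66% fewer probe sets entered the fit and the adjustment.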
